A study of Mus musculus with 9 samples.

Results

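The nuclear genes for the respiratory chain and ATP synthase were measured by RNA-seq in mouse embryonic stem cells. Mock controls, cells given auxin to remove the Polycomb protein Suz12, and cells after auxin washout were separate groups. The members are all protein-coding genes on nuclear chromosomes whose symbol begins with Nduf, Uqcr, Cox4, Cox5, Cox6, Cox7, Cox8 or Atp5, or is Sdha, Sdhb, Sdhc or Sdhd. This choice used no measured value. It took 93 of the 48440 genes in the count tables: 44 of complex I, 4 of complex II, 8 of complex III, 20 of complex IV and 17 of ATP synthase (complex V). Ndufa4 and Ndufa4l2 carry complex I symbols but belong to complex IV and are counted there. Another 11 genes with such symbols are not protein-coding and were left out. Subunits that carry other symbols, such as Cyc1, stand outside the rule. Among the 93 members, 91 passed the filter on low counts and were tested. The 2 that did not, Cox8b and Cox8c, are isoforms of adult muscle and testis.

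All 9 libraries came from J1 cells, an established mouse embryonic stem cell line, with the genotype Suz12-AID. In these cells Suz12, a core subunit of Polycomb repressive complex 2, carries an auxin-inducible degron, a tag through which the plant hormone auxin triggers destruction of the protein. The Mock controls carried the same tag, and no library came from untagged cells given auxin. Effects of Suz12 loss and of auxin or its washout therefore cannot be told apart. The cells grew on gelatin in medium with serum, LIF and the 2i inhibitors PD0325901 and CHIR99021. The Auxin group was kept in 50 µM indole-3-acetic acid for 96 h. The Reintroduction group had the same 50 µM for 96 h, and auxin was then washed out for 4.5 h. Each group had 3 libraries, stated to be biological replicates. The labels do not say whether the line is a single clone or whether replicates were separate cultures, so the p-values measure the spread between these samples. Polyadenylated RNA was sequenced, and protein was not analysed here.

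Complexes I to IV pass electrons from NADH and succinate to oxygen and, except for complex II, pump protons out of the mitochondrial matrix. ATP synthase lets the protons flow back and makes ATP. Most of their subunits are encoded in the nucleus and imported, while a few core subunits of complexes I, III, IV and V are encoded in the mitochondrial genome. Their nuclear genes are expressed in nearly all cells. A few complex IV subunits also exist as isoforms of muscle, testis or hypoxic cells.

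The libraries held 44341283 to 113931419 counts, with the mates of a pair counted singly. They also differed in how counts followed gene length. Over 10177 protein-coding genes, log2 CPM (the count scaled to the size of its library) changed per doubling of exon length by -0.25 to -0.17 in Mock, by 0.01 to 0.15 in Auxin and by 0.08 to 0.10 in Reintroduction. Auxin replicate 2 stood apart from the other Auxin libraries, with a slope of 0.01 where they had 0.15. The 10 pluripotency markers summed to 5840 to 6000 CPM in Mock, 7010 to 7550 CPM in Auxin and 5620 to 5730 CPM in Reintroduction, and none was under 1 CPM in all groups. The 8 fibroblast markers summed to 18.6 to 20.7, 40.4 to 47.5 and 38.1 to 39.4 CPM in Mock, Auxin and Reintroduction. Of these, 6 of 8 were under 1 CPM throughout. Of the 4 fibroblast markers tested, 2 were higher and 1 lower in Auxin against Mock, with a median log2 fold change of 0.771. Most of the sum was Thy1, at 17.9 CPM in Mock and 41.2 CPM in Auxin. Col1a1 fell by 1.465, and Col3a1, Dcn and Lum had no counts in Auxin. The 8 primitive endoderm markers summed to 34.4 to 36.5, 55.8 to 57.3 and 49.8 to 52.6 CPM. The part of these shifts in the results below was not tested. In such bulk samples, fewer cells of a type and less RNA per cell cannot be told apart.

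The most abundant members in Mock were mainly subunits of ATP synthase and complex IV, in an order that depends on the length used. Per kilobase of all annotated exons, the alpha subunit Atp5a1 stood at 467 ± 18.03 CPM and the beta subunit Atp5b at 459 ± 20.3 CPM (mean ± SD, n = 3). On the same scale Cox8a had 456 ± 26.9 CPM and Cox4i1 328 ± 24.7 CPM, so the first 3 do not differ beyond their spread. Per kilobase of mRNA, Atp5b led with 1015 ± 44.9 CPM, before Cox4i1 (665 ± 50.04), Atp5a1 (592 ± 22.9) and the c subunit gene Atp5g3 (583 ± 34.6). The last 2 of these do not differ beyond their spread. With the pseudogene copies described next added, Atp5l, the g subunit, reached 650.0 ± 43.97 CPM per kb of exon and passed all others on that scale. All members together took 1.00 to 1.06% of the counts in Mock, 0.68 to 0.81% in Auxin and 0.73% in each Reintroduction library.

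These levels depend on where reads from spliced mRNA were counted. For 42 of the 93 members the annotation holds processed pseudogenes, intron-less copies of the mRNA, that are at least 85% identical over at least 50% of the copy. There were 99 such copies, and for 27 of the 42 members the copies held more counts than the member itself. In Mock replicate 1, Cox6c had 3804 counts and its copy Cox6c2 had 24807. Atp5h, the d subunit of the ATP synthase stalk, had 2698 counts and its copy Gm10250 had 28461. Atp5k, the e subunit, had 278 counts and Atp5k-ps2 had 6517. The copies took 29.6 to 32.6% of the counts on members and copies in every library. A median of 32.0% of 75-base windows along a member's mRNA cross an exon junction. Such windows are unbroken in the genome only in a processed copy. The following coding windows of 30 bases on either side of a junction show this: each occurs whole in the copy named after it. Lower case marks the upstream exon and capitals the next exon, written 5′ to 3′ in the gene's direction (all genes on the minus strand, GENCODE M21, mm10).
Cox6c exons 1 and 2, chr15:35937155-35937645 and chr15:35935285-35935413, whole in Cox6c2: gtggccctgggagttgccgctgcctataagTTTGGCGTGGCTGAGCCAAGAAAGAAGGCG
Cox7c exons 1 and 2, chr13:86046601-86046904 and chr13:86045727-86045869, whole in Gm12338: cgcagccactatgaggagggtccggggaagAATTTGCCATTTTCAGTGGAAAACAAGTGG
Atp5h exons 3 and 4, chr11:115418386-115418516 and chr11:115417839-115417935, whole in Gm10250: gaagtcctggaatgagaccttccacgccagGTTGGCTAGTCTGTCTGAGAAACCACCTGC
Atp5g1 exons 4 and 5, chr11:96073523-96073701 and chr11:96068852-96073218, whole in Gm10039: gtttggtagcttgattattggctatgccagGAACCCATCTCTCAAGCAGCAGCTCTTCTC
Atp5l exons 2 and 3, chr9:44914651-44914811 and chr9:44913217-44913466, whole in Gm10221: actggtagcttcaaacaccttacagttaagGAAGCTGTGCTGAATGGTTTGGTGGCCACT
Atp5o exons 4 and 5, chr16:91926853-91926982 and chr16:91926459-91926571, whole in Gm5436: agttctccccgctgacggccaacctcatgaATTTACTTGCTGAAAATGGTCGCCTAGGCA
The level of a member with copies may therefore leave out reads counted on a copy, and whether the copies are themselves transcribed was not tested. Fold changes with the copies' counts added are given where they change a call or direction.

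**Figure D1:**
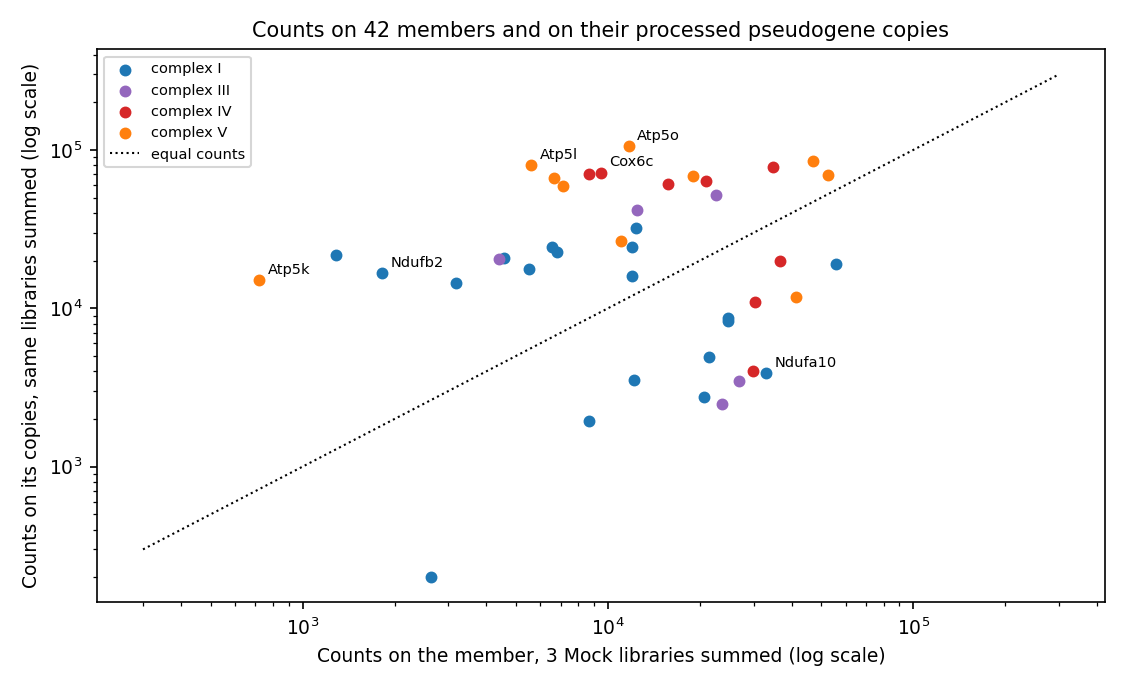
Counts on 42 members (horizontal axis) and on their processed pseudogene copies (vertical axis), each summed over the 3 Mock libraries, both on log scales and coloured by complex. The dotted line marks equal counts, and 27 members lie above it, among them Atp5k, Cox6c, Atp5l and Atp5o.

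Auxin against Mock asks what differs after 96 h of auxin, which was given to deplete Suz12. Most members were lower in Auxin. By edgeR's quasi-likelihood test with Benjamini-Hochberg adjustment over the 20838 genes tested, 75 of 91 members were lower, 5 were higher and 11 were not called at an adjusted p under 0.05. Over all genes tested, 34.8% were called lower and 38.4% higher. The count of 5 higher members was 3 when Mock replicate 2 or 3, Auxin replicate 2 or any 1 of the Reintroduction libraries was left out. The median log2 fold change of the members was -0.65, and that of all genes 0.05. In 71 members all 3 Auxin libraries lay below all 3 Mock libraries, and in 3 they lay above. The same held for 35.8% of all genes below and 38.4% above. Set against the Mock mean, the members' median log2 level was 0.09, -0.05 and -0.04 for Mock replicates 1 to 3. For Auxin it was -0.78, -0.55 and -0.78, and for Reintroduction -0.57, -0.52 and -0.57 (88 members with at least 1 CPM in a group). The 3 Auxin libraries were all low, and replicate 2 was the least low. Of the 72 pseudogene copies tested, 58 were lower and 1 higher, with a median of -0.88.

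**Figure D2:**
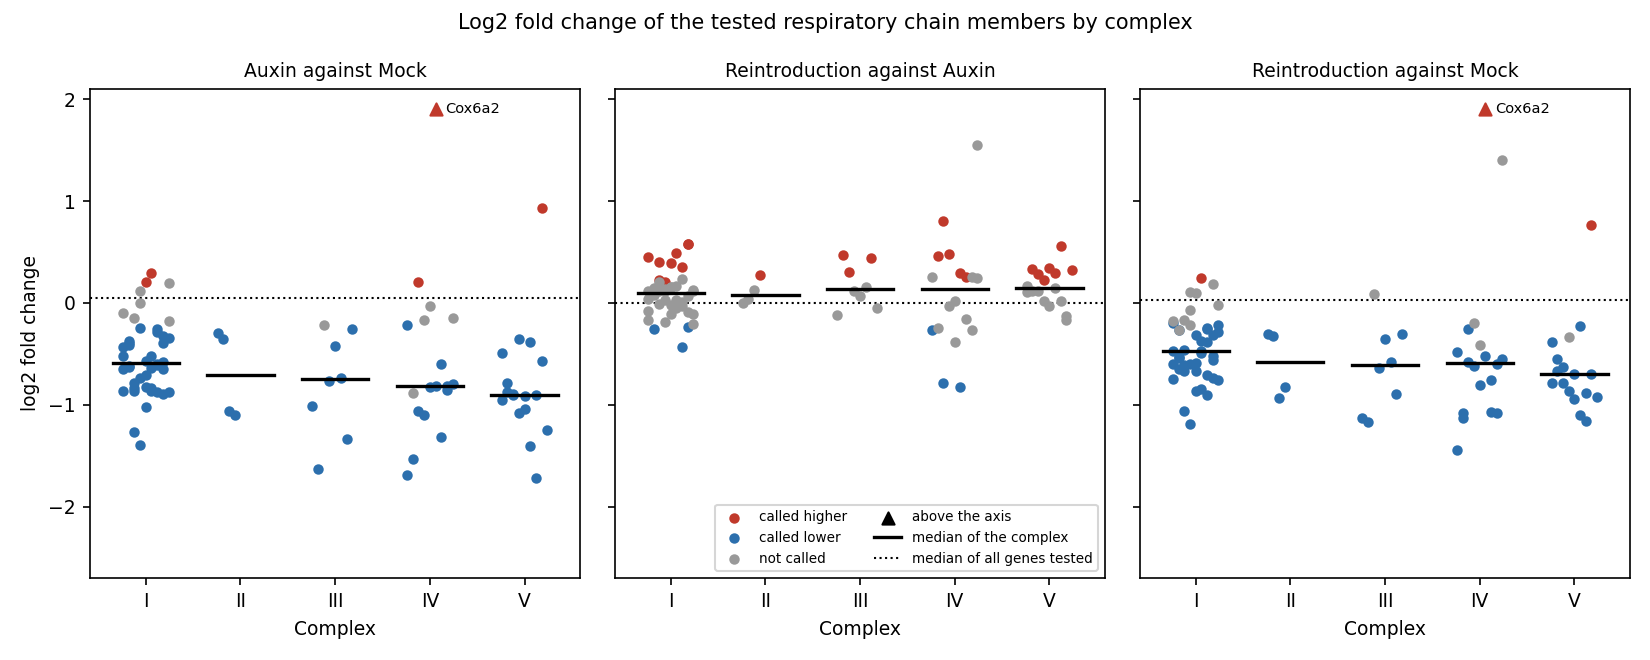
Log2 fold change of the 91 tested members (points) by complex in each of the 3 comparisons. Red and blue points are called higher and lower, grey points are not called, black bars are medians of the complexes, and the dotted line is the median of all genes tested. All 5 medians lie at or below -0.59 in Auxin against Mock and at or below -0.48 in Reintroduction against Mock. Cox6a2 lies above the axis in both, at a value that depends on its near absence in Mock.

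Complex I oxidises NADH. Of its 44 members, 36 were lower in Auxin and 2 higher, with a median of -0.59. The largest fall was in Ndufb10 (ENSMUSG00000040048.14, mm10 chr17:24722060-24724478, minus strand), an accessory subunit of the membrane arm. It measured 92.7, 81.04 and 89.5 CPM in Mock, 30.1, 37.0 and 33.0 CPM in Auxin, and 38.9, 37.4 and 39.3 CPM in Reintroduction. The lowest Mock library was thus above every treated library. Its log2 fold change was -1.39 (SE 0.08, adjusted p = 3.33e-08). Among the 7 core subunits, 6 were lower. Ndufs1, the largest subunit and a carrier of iron-sulphur clusters, measured 236, 236 and 231 CPM in Mock and 153, 162 and 149 CPM in Auxin, a change of -0.60 (SE 0.05, adjusted p = 6.00e-07). Ndufs8 (-1.02), Ndufv1 (-0.83) and Ndufv2 (-0.26) were among the others that fell. Ndufs1 shares exon sequence with Eef1b2, which had 70114 to 110595 counts in Mock and rose by 0.28 in Auxin. It also shares exon sequence with Ino80dos, which rose by 1.16. The part of these reads in the values of Ndufs1 was not tested. Ndufs3 had a log2 fold change of -0.18 (adjusted p = 0.0898), with 17.6 ± 1.70 CPM in Mock and 15.6 ± 1.10 CPM in Auxin. Counted with its 2 copies, which held 81.9% of the joint counts in Mock, Ndufs3 fell by 0.40 and was called lower. All 8 assembly factors with Ndufaf symbols, which help build the complex but are not part of it, were lower, with a median of -0.52. The 10 complex I assembly factors with other symbols went both ways, with 5 lower, 3 higher and a median of -0.09. Timmdc1 (0.71), Tmem126b (0.60) and Tmem186 (0.50), named after their values were seen, rose in Auxin.

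The 2 complex I members called higher are small changes with limits of their own. Ndufb2 measured 6.52, 7.16 and 7.81 CPM in Mock and 9.29, 8.41 and 8.62 CPM in Auxin (log2 fold change 0.30, SE 0.08, adjusted p = 0.00626). The groups do not overlap. Its pseudogene copy held 90.1% of the joint counts in Mock, and the sum of both fell by 0.36. Ndufb2 also shares exon sequence with Braf, and the counting used no strand. Braf rose from between 3762 and 4437 counts in Mock to between 6456 and 10588 in Auxin. The part of these reads in the rise was not tested. Ndufb11 changed by 0.20 (adjusted p = 0.0371), with overlapping groups, and with its copy added had a value of 0.15, which was not called. Ndufa6 (0.19) and Ndufb9 (0.12) had positive values that were not called.

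Complex II oxidises succinate and has no subunit from the mitochondrial genome. All 4 members were lower, and no Auxin library overlapped a Mock library in any of them, where 35.8% of all genes lay below Mock in this way. The membrane anchors changed most. Sdhd (ENSMUSG00000000171.4, mm10 chr9:50596338-50603849, minus strand) measured 314, 297 and 280 CPM in Mock, 134, 152 and 129 CPM in Auxin, and 165, 170 and 167 CPM in Reintroduction. Its change in Auxin was -1.10 (SE 0.07, adjusted p = 6.27e-08), and that of Sdhc was -1.06 (SE 0.08, adjusted p = 1.86e-07). The catalytic subunits fell less: Sdha, which holds the flavin, by 0.30 (SE 0.06, adjusted p = 0.000462), and the iron-sulphur subunit Sdhb by 0.36 (SE 0.07, adjusted p = 0.00102). None of the 4 has a processed copy by the rule used. The difference between anchors and catalytic subunits was not tested.

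Complex III passes electrons from ubiquinol to cytochrome c. Of its 8 members, 7 were lower, with a median of -0.75. Uqcr11, a small accessory subunit (ENSMUSG00000020163.12, mm10 chr10:80402997-80406830, minus strand), fell most. It measured 18.4, 15.8 and 16.7 CPM in Mock, 4.61, 6.90 and 4.86 CPM in Auxin, and 7.37, 8.20 and 7.21 CPM in Reintroduction. The change in Auxin was -1.64 (SE 0.14, adjusted p = 7.10e-07), or -1.71 with its 3 copies added. The hinge protein Uqcrh fell by 1.34. Among the core subunits, Uqcrc1 fell by 0.76 (SE 0.08), the Rieske protein Uqcrfs1 by 0.74 (SE 0.07) and Uqcrc2 by 0.42 (SE 0.06). Uqcrb had a log2 fold change of -0.22 (adjusted p = 0.0502). With its copies added it fell by 0.36 and was called.

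Complex IV reduces oxygen. Of its 18 tested members, 12 were lower, 2 higher and 4 not called. Among the 11 ubiquitous subunits, 10 were lower, with a median of -0.83. Cox5a, a matrix-side subunit (ENSMUSG00000000088.6, mm10 chr9:57521232-57532424, plus strand), measured 61.8, 65.1 and 54.7 CPM in Mock, 29.3, 30.7 and 27.0 CPM in Auxin, and 48.3, 52.9 and 50.4 CPM in Reintroduction. The 3 groups do not overlap. The change in Auxin was -1.06 (SE 0.08, adjusted p = 2.00e-07). Cox7a2 fell by 1.54 (SE 0.09), Cox6b1 by 1.32, Cox7b by 1.10, Ndufa4 by 0.85, Cox6a1 by 0.83 and Cox8a by 0.60. Cox4i1, a membrane-spanning subunit, had 509 ± 38.3 CPM in Mock and 438 ± 49.4 CPM in Auxin, with overlapping groups and a change of -0.22 (SE 0.08, adjusted p = 0.0290). It shares exon sequence with Emc8, which fell by 1.36. Cox5b, with a value of -0.17 (SE 0.12, adjusted p = 0.224), was not called.

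ATP synthase had the lowest median of the 5 complexes, -0.90, with 16 of 17 members lower and 1 higher. The differences between complexes were not tested. The catalytic head subunits fell together, and 5 of 5 F1 members were lower. Atp5b, the catalytic beta subunit (ENSMUSG00000025393.12, mm10 chr10:128083273-128090391, plus strand), measured 2044, 1904 and 1887 CPM in Mock, 1077, 1276 and 1040 CPM in Auxin, and 1228, 1196 and 1253 CPM in Reintroduction. The change in Auxin was -0.78 (SE 0.08, adjusted p = 3.03e-06). Atp5a1, the alpha subunit, fell by 0.95 (SE 0.07, adjusted p = 1.91e-07), and has no copy by the rule used. All 4 stalk members and all 4 membrane members tested were lower, among them Atp5mpl, a small membrane subunit, at -1.40.

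The c subunits form the rotating ring of the membrane part, and 3 genes encode the same mature protein. Atp5g1 (ENSMUSG00000006057.15, mm10 chr11:96068852-96075670, minus strand), whose junction window is shown above, measured 78.0, 71.96 and 69.7 CPM in Mock, 19.8, 26.5 and 20.5 CPM in Auxin, and 32.8, 35.9 and 29.8 CPM in Reintroduction. Its change in Auxin, -1.72 (SE 0.11, adjusted p = 8.67e-08), was the largest fall of all members. The copy Gm10039, counted apart, fell by 1.91. Atp5g3 fell by 1.25 and Atp5g2 by 0.57. Of the counts on the 3 genes, Atp5g1 took 13.6 to 14.4% in Mock, 10.1 to 10.3% in Auxin and 11.4 to 13.2% in Reintroduction. Atp5g2 took 5.09 to 5.32% in Mock, 8.29 to 8.63% in Auxin and 6.13 to 6.33% in Reintroduction. Atp5g3 held 80.3 to 82.5% in every library. All 3 Auxin libraries thus had a smaller share from Atp5g1 and a larger share from Atp5g2 than any Mock library. With the copies' counts added to each gene, Atp5g1 took 32.9 to 33.8% in Mock, 21.7 to 22.1% in Auxin and 26.0 to 27.9% in Reintroduction, Atp5g2 took 24.7 to 25.5%, 35 to 37.1% and 27.8 to 29.6%, and Atp5g3 held 40.6 to 45.1% in every library.

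**Figure D3:**
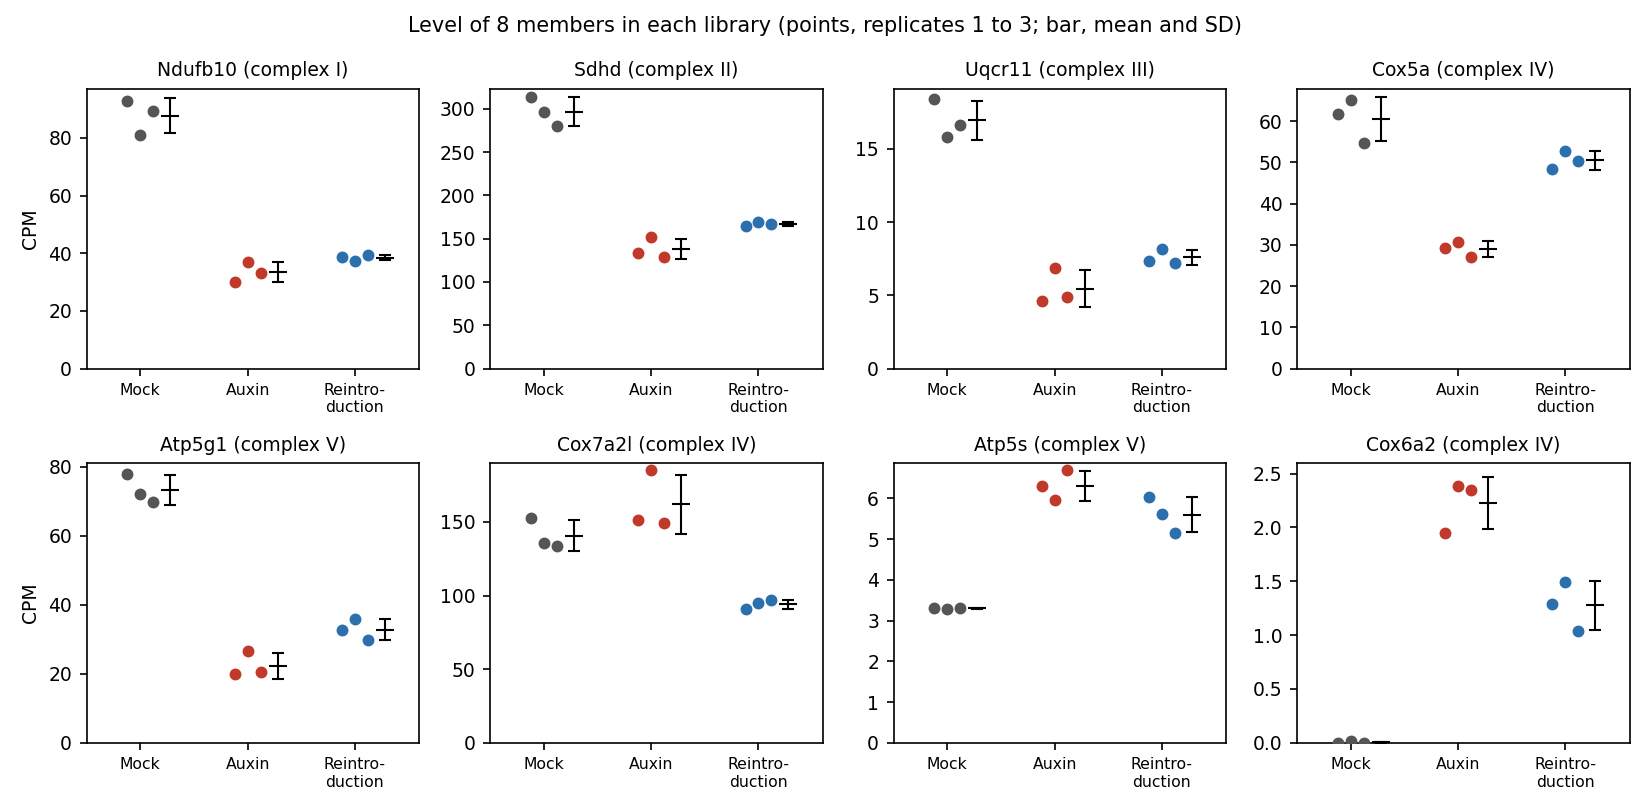
CPM of 8 members in each library, with replicates 1 to 3 as points and the mean and SD as bars; each axis starts at 0. Ndufb10, Sdhd, Uqcr11, Cox5a and Atp5g1 are lower in all 3 Auxin libraries than in all 3 Mock libraries, Atp5s and Cox6a2 are higher, and Cox7a2l overlaps between Mock and Auxin and is lowest in Reintroduction.

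Against this general fall, the 3 members called higher outside complex I were Cox6a2, Atp5s and Cox7a2l. Cox6a2, the heart and skeletal muscle isoform of subunit VIa (ENSMUSG00000030785.8, mm10 chr7:128205435-128206387, minus strand), was nearly absent in Mock, with 0, 1 and 0 counts. It had 160, 182 and 161 counts in Auxin and 103, 67 and 85 in Reintroduction. Scaled to library sizes with TMM factors, Cox6a2 in Auxin was at 571 times the Mock level. The exact 95% interval, 102 to 22600, covers counting error only and is too narrow, since mates were counted singly. For Cox6a2 the edgeR adjusted p was 9.27e-09. Even so, it made up only 2.11 to 2.67% of the counts on Cox6a1 and Cox6a2 in Auxin. Of 6 muscle markers tested, 4 were lower in Auxin and none higher, while against Mock 3 were lower and 2, Acta1 (1.02) and Tnnt2 (0.86), higher in Reintroduction. The 11 listed genes summed to 7.69 to 8.84 CPM in Mock, 3.27 to 3.92 in Auxin and 4.86 to 5.01 in Reintroduction, and 8 of them were under 1 CPM throughout. Itgad, which shares exon sequence with Cox6a2, had 0 to 3 counts in every library.

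Atp5s, factor B of ATP synthase (ENSMUSG00000054894.5, mm10 chr12:69724962-69744658, plus strand), rose from 3.30, 3.28 and 3.32 CPM in Mock to 6.29, 5.96 and 6.69 CPM in Auxin. In Reintroduction it measured 6.02, 5.61 and 5.16 CPM. The change in Auxin was 0.94 (SE 0.09, adjusted p = 2.01e-06). Cox7a2l, which joins complexes III and IV into supercomplexes (ENSMUSG00000024248.13, mm10 chr17:83501919-83514333, minus strand), measured 153, 136 and 133 CPM in Mock, 151, 185 and 150 CPM in Auxin, and 90.8, 94.9 and 96.7 CPM in Reintroduction. Mock and Auxin overlap, and the change of 0.21 (SE 0.08, adjusted p = 0.0471) lay close to the threshold.

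Other isoforms of complex IV did not rise. Cox7a1, the muscle isoform related to Cox7a2, stood at 3.66 ± 0.56 CPM in Mock and 1.14 ± 0.03 CPM in Auxin (log2 fold change -1.69, SE 0.16, adjusted p = 2.58e-06). It kept 2.38 to 3.08% of the counts on the pair in Auxin, against 2.74 to 3.24% in Mock. Cox6b2, the testis isoform, fell by 0.82 (SE 0.12, adjusted p = 9.26e-05), and took 10.6 to 12.1% of the counts on Cox6b1 and Cox6b2 in Mock and 13.6 to 17.2% in Auxin. The 7 testis markers summed to 2.95 to 4.02 CPM in Mock, 0.584 to 1.04 in Auxin and 0.515 to 0.846 in Reintroduction, with Prm2 and Tnp1 at 0 in all libraries. Nearly all of this was Ldhc (3.31 CPM in Mock, 0.589 CPM in Auxin), while Acrv1, the only other one tested, rose from 0.03 to 0.14 CPM. The part of these markers in the result was not tested. Cox4i2, Cox7b2 and Ndufa4l2 were under 1 CPM in each library and were not called in Auxin. Cox8c had 0 to 10 counts per library, and Cox8b had 1 count in all 9. Ndufa4l2 had 64 counts in Reintroduction replicate 1 and 14 and 10 in the others, so its Reintroduction mean rests on that library.

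Short genes were more often lower in Auxin: 47.6% of other protein-coding genes up to 1000 bp of exon were called lower, and 25.8% above 4000 bp. Many members are short, since their median exon length was 1381 bp, against 3049 bp for protein-coding genes. The comparison was therefore repeated against other protein-coding genes of the same length. Up to 1000 bp, the other genes had a median of -0.45 and the 30 members -0.74. From 1000 to 2000 bp the medians were -0.23 for other genes and -0.68 for 32 members. From 2000 to 4000 bp they were -0.05 and -0.72 for 20 members, and above 4000 bp they were 0.33 and -0.62 for 9 members. The members lay below the median of other genes in 21 of 30, 27 of 32, 20 of 20 and 9 of 9 cases, from the shortest band to the longest. While other protein-coding genes gained 0.26 log2 units per doubling of exon length (14650 genes, r = 0.21 across genes), the 88 members with at least 1 CPM changed by -0.03 per doubling of exon length and by 0.06 per doubling of mRNA length. These are descriptions across genes, which are not replicates.

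**Figure D4:**
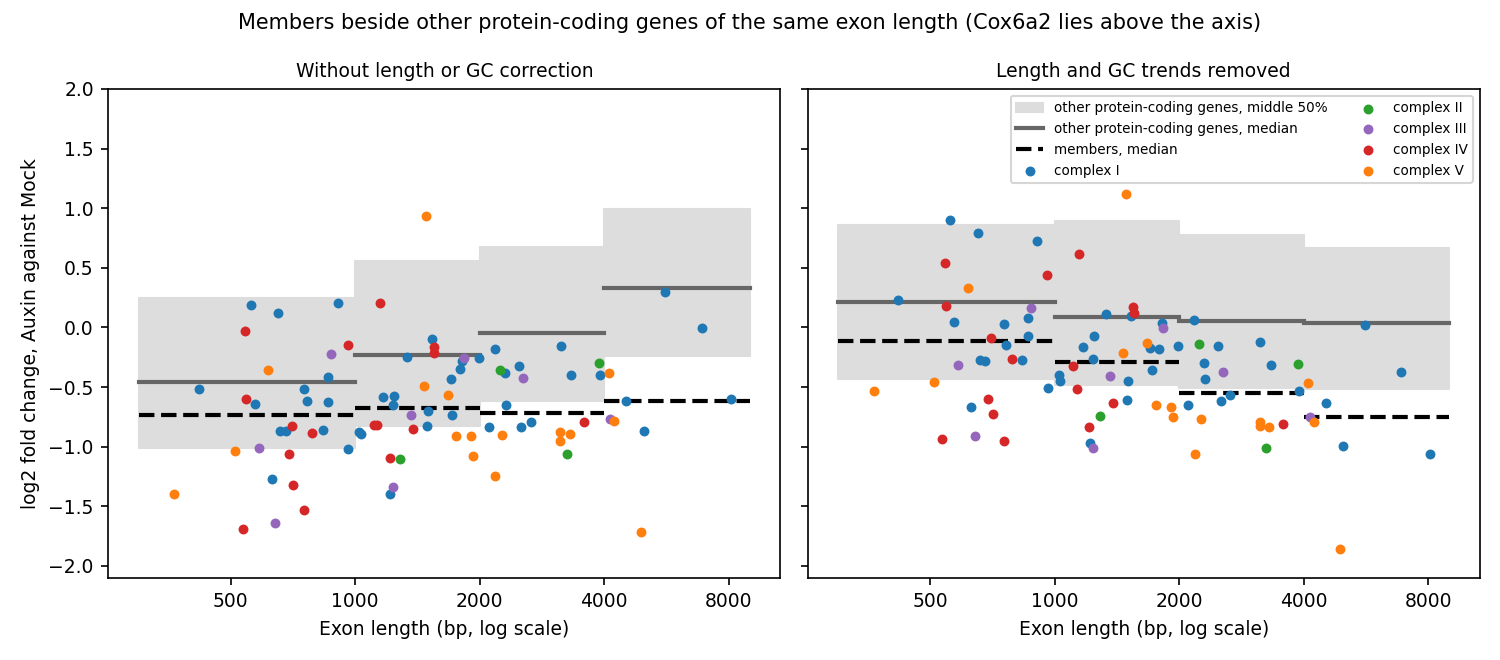
Log2 fold change in Auxin against Mock by exon length (log scale), without correction (left) and with length and GC trends removed (right). Points are members coloured by complex, grey boxes the middle 50% of other protein-coding genes in a length band, solid lines their medians and dashed lines the members' medians. Without correction the medians of other genes climb from -0.45 to 0.33 with length while those of members stay between -0.62 and -0.74.

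With per-library trends on length and GC content removed, 60 of 91 members were lower and 10 higher, with a median of -0.32. In that fit 32.0% of all genes were called lower and 43.3% higher, and the median of all genes was 0.16. The members' median in the 4 length bands was -0.12, -0.29, -0.55 and -0.75, against 0.21, 0.09, 0.06 and 0.04 for other genes. Single short genes turned with this correction. Ndufa1, a 419 bp gene, changed by -0.52 without and 0.23 with the correction, and was called both ways. Cox8a changed by -0.60 and 0.18, Cox4i1 by -0.22 and 0.17 and Atp5k by -0.35 and 0.33, each called in both directions. Of the ATP synthase members, 15 of 17 were still lower, as were 4 of 4 in complex II, 6 of 8 in complex III, 26 of 44 in complex I and 9 of 18 in complex IV. Atp5g1 had -1.86, Ndufs1 -1.07, Sdhc -1.01 and Ndufb10 -0.97 in this fit.

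**Figure D5:**
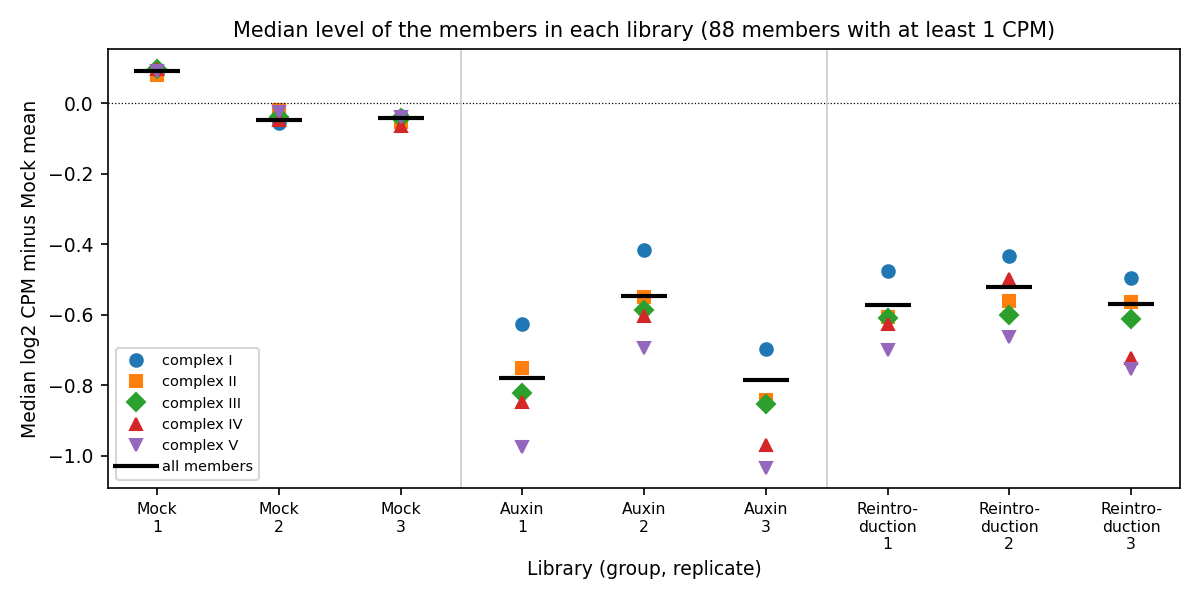
Median log2 CPM relative to the Mock mean in each library, for all 88 members with at least 1 CPM (bars) and for each complex (symbols). All 6 Auxin and Reintroduction libraries lie below all 3 Mock libraries, and Auxin replicate 2, at -0.55 for all members, lies nearer to the Reintroduction libraries than the other Auxin libraries do.

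Reintroduction against Auxin asks what moved within 4.5 h of auxin washout. It shares the Auxin libraries with the comparison above. Of 91 members, 25 were higher, 6 lower and 60 not called. Their median log2 fold change was 0.11 and that of all genes 0.00. The members' median was 0.20 without Auxin replicate 2, 0.06 without Auxin replicate 1 or 3, and 0.035 with total counts. Over all genes, 25.5% were called in either direction alike (higher 25.5%, lower 25.5%), so the share of members called higher was close to that of all genes. The count leaned on single Auxin libraries: without Auxin replicate 2 it was 48, and without Auxin replicate 1 it was 16. Scaled by total counts alone, 18 members were higher and 13 lower. In the fit without length and GC trends, 28 members were higher and 17 lower, where 24.4% of all genes were higher and 30.5% lower. The members' median was then 0.05.

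Over all genes, 25.5% were called higher. Rises were called in 9 of 44 members of complex I, 1 of 4 in complex II and 3 of 8 in complex III. They were called in 5 of 18 in complex IV and 7 of 17 in ATP synthase. Cox5a rose most, by 0.80 (SE 0.08, adjusted p = 6.94e-06), and by 0.54 with its copy added. Of the 8 assembly factors with Ndufaf symbols, 5 rose: Ndufaf4 by 0.58 (SE 0.08, adjusted p = 0.000170), Ndufaf2 by 0.49, Ndufaf6 by 0.45, Ndufaf8 by 0.40 and Ndufaf1 by 0.39. Of the 10 complex I assembly factors with other symbols, 2 rose and 6 fell, with a median of -0.32, among them Timmdc1 at -0.735 and Tmem126b at -0.69. Ndufaf4 measured 60.3, 62.2 and 62.5 CPM in Mock, 47.6, 40.1 and 52.7 CPM in Auxin, and 71.0, 71.9 and 67.5 CPM in Reintroduction, so that every Reintroduction library lay above every library of the other groups. The accessory subunit Ndufa5 rose by 0.57 and the core subunit Ndufs1 by 0.35 (SE 0.05, adjusted p = 0.000127). Elsewhere Atp5g1 rose by 0.56 (SE 0.11), Cox7b by 0.48, Uqcr11 by 0.47, Cox7a2 by 0.46, Uqcrh by 0.44, Atp5g3 by 0.33 and Sdhd by 0.27. Of the core members named above, Sdha (0.00), Sdhb (0.03), Ndufv2 (0.01), Ndufv1 (-0.02), Uqcrc2 (0.07), Uqcrc1 (0.12), Uqcrfs1 (0.16), Atp5b (0.12) and Atp5a1 (0.17), were not called.

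The 6 members that fell after washout were Cox6a2, Cox7a2l, Ndufaf3, Cox4i1, Ndufa10 and Ndufv3. Cox7a2l fell by 0.78 (SE 0.09, adjusted p = 2.07e-05), and its highest Reintroduction library, at 96.7 CPM, lay below the lowest Auxin library, at 150 CPM. Cox6a2 fell by 0.82 (SE 0.19, adjusted p = 0.00361), from 1.95 to 2.39 CPM in Auxin to 1.04 to 1.49 CPM in Reintroduction. The assembly factor Ndufaf3 fell by 0.43 (SE 0.09, adjusted p = 0.00176). Cox4i1 fell by 0.27, and the complex I subunits Ndufa10 by 0.25 and Ndufv3 by 0.24.

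Reintroduction against Mock asks what still differed after washout, and shares libraries with both other comparisons. Here 74 of 91 members were lower, 3 higher and 14 not called, with a median of -0.56. All genes had a median of 0.03, and 33.4% of them were called lower and 34.7% higher. By complex, 34 of 44, 4 of 4, 7 of 8, 14 of 18 and 15 of 17 members were lower in complexes I to V. In 78 members every Reintroduction library lay below every Mock library, as in 37.0% of all genes. With length and GC trends removed, 59 members were lower and 8 higher, with a median of -0.35, where 31.0% of all genes were lower and 36.0% higher.

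The member furthest below Mock in each complex was Ndufb10 (-1.19), Sdhc (-0.94), Uqcr11 (-1.17), Cox7a1 (-1.44) and Atp5g1 (-1.16). Cox5a stood at -0.26 (SE 0.07, adjusted p = 0.00903), at -0.58 with its copy added, and at 0.20 with the length trend alone removed. Ndufaf4 was not called (0.19, adjusted p = 0.0702). Leaving out Auxin replicate 2 moved the count of higher members from 3 to 5. The 3 higher members were Cox6a2, at 318 times the Mock level (exact 95% interval 56.6 to 12600, counting error only), Atp5s at 0.76 (SE 0.09, adjusted p = 1.84e-05) and Ndufb2 at 0.25. The interval for Cox6a2 is too narrow, since mates were counted singly. With its copy added, Ndufb2 was lower than Mock by -0.26.

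Promoter sequence was compared with all genes, since the members fell together. RefSeq promoter windows (GRCm38.p6, from 250 bases before to 50 bases after the start) were found for 76 members, in 81 windows, and for 21262 windows in all. The NRF1 motif CGCATGCGC, bound by a regulator of respiratory genes, was in 10 of 81 member windows (12.3%) and in 2.35% of all windows. The YY1 motif AAGATGGCG was in 8 (9.88%, against 1.83%), the ETS motif CCGGAAGT in 5 (6.17%, against 5.15%) and the CRE motif TGACGTCA in 4 (4.94%, against 2.23%). The stress response motif TGATGCAA was in none of the 81 windows and in 0.87% of all windows. Both strands were searched for exact letters, and none of the motifs contains another. For members described above, windows around the NRF1 match are shown with the motif in capitals, 5′ to 3′ in the gene's direction.
Atp5g2, chr15:102671070-102671098, minus strand: gctccggccgCGCATGCGCagagccttcc
Cox6a1, chr5:115349101-115349129, minus strand: aggaacggggCGCATGCGCgctctcgctc
Ndufaf4, chr4:24897961-24897989, plus strand: cagatgtctgCGCATGCGCctgtgcggaa
Uqcr11, chr10:80406808-80406836, minus strand: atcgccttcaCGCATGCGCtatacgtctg
Uqcrc1, chr9:108936669-108936697, plus strand: ctccgctctgCGCATGCGCagcgcggctc
All 10 members with this motif were lower in Auxin, from -0.35 for Ndufaf5 to -1.64 for Uqcr11, beside 75 of all 91 members. In the fit without length and GC trends Atp5k, one of the 10, was higher (0.33), and Cox6a1 and Ndufa8 were not called. In 7 of the 8 members with the YY1 motif it begins 11 to 36 bases after the start. In Atp5j it begins at -88, before the start. The windows that follow in the same form are 5 of these, with Atp5j among them.
Atp5j, chr16:84835046-84835074, minus strand: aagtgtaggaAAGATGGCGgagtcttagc
Ndufa9, chr6:126849097-126849125, minus strand: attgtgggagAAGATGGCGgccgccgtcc
Ndufaf8, chr11:120098934-120098962, plus strand: ggcagggcccAAGATGGCGgcgccctcga
Ndufs4, chr13:114388045-114388069, minus strand: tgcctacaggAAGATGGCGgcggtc
Ndufs6, chr13:73328433-73328459, minus strand: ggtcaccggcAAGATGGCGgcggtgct
Of the 8, Ndufs6 fell by 1.27 in Auxin, and Ndufs4 had -0.10 (adjusted p = 0.281) and was not called. The other 6 fell by 0.73 to 0.90. A match to these letters is a description of the sequence.

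The regulators and partners of the chain were read from lists outside the rule. The mRNA of Nrf1 itself stood at 100 ± 4.38 CPM in Mock and 69.4 ± 4.23 CPM in Auxin, a change of -0.53 (SE 0.06, adjusted p = 8.03e-06). Of 20 tested regulators of mitochondrial gene expression, 15 were lower and 2 higher in Auxin. The mitochondrial transcription factor Tfam fell by 0.56 (SE 0.05, adjusted p = 7.91e-07). Gabpa, an ETS factor that shares exon sequence with Atp5j, rose by 0.73 in Reintroduction against Auxin (SE 0.14, adjusted p = 0.00120). Among all 81 tested pathway genes outside the rule, with the assembly factors, cytochrome c, ubiquinone synthesis and the regulators, 45 were lower and 15 higher in Auxin, with a median of -0.21. In Reintroduction against Auxin 15 were higher and 22 lower, and in Reintroduction against Mock 9 were higher and 48 lower. Among all genes tested, 34.8% were lower and 38.4% higher in Auxin against Mock. The shares were 25.5% in either direction in Reintroduction against Auxin, and 33.4% lower and 34.7% higher in Reintroduction against Mock.

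Cytochrome c itself, Cycs, fell by 0.74 in Auxin (SE 0.08, adjusted p = 5.08e-06) and rose by 0.57 after washout (SE 0.08, adjusted p = 0.000110). Cmc2, a complex IV assembly factor, fell by 1.15, and Dmac1, a complex I assembly factor, by 1.11. Ttc19, which serves complex III, rose from 23.7, 25 and 24.9 CPM in Mock to 56.3, 54.6 and 57.3 CPM in Auxin (log2 fold change 1.19, SE 0.05, adjusted p = 4.44e-09). It stood at 45.7, 47.3 and 44.6 CPM in Reintroduction, 0.90 above Mock. Cox20 rose by 2.32 in Auxin and stood 1.79 above Mock in Reintroduction, but only from 0.07 to 0.35 CPM. After washout, Pdss1 of ubiquinone synthesis rose by 0.67, while Coq10a fell by 0.92 and Coq2 by 0.89. Against Mock, the ATP synthase assembly factor Atpaf2 stood lowest in Reintroduction, at -1.07, next to Uqcc3 of complex III at -1.04.

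The mitochondrial genome encodes 13 subunit mRNAs of the chain. In Auxin 6 were lower and none higher, with a median of -0.21. In Reintroduction against Auxin 11 were higher and none lower, with a median of 0.54, and against Mock 5 were higher and 1 lower. Among all genes tested, 34.8% were lower and 38.4% higher in Auxin against Mock. The shares were 25.5% in either direction in Reintroduction against Auxin, and 33.4% lower and 34.7% higher in Reintroduction against Mock. The complex I subunits mt-Nd1 and mt-Nd2 fell by 1.03 and 1.10 in Auxin and rose by 0.93 and 1.13 after washout. The complex IV subunit mt-Co1 had values of 0.09 (adjusted p = 0.242) and 0.06 (adjusted p = 0.510). With length and GC trends removed, the Auxin median turned to 0.19, with 8 higher and 4 lower, and the washout median to -0.11, with 4 higher and 5 lower. That fit called 43.3% of all genes higher and 32.0% lower in Auxin, and 24.4% higher and 30.5% lower after washout. Whether the nuclear and mitochondrial sets differ was not tested.

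For scale, other complexes encoded by nuclear genes were read in the same fit. Their median exon length was 2037.5 bp for mitochondrial ribosomal proteins, 2488.5 bp for proteasome subunits and 1454 bp for cytosolic ribosomal proteins. With 1381 bp for the members, only the last set is close to them in length. The 77 tested mitochondrial ribosomal proteins had a median of -0.74 in Auxin, with 74 lower, and the 38 tested proteasome subunits -0.77, with 36 lower. The 90 tested cytosolic ribosomal proteins had -0.32, with 54 lower and 3 higher. Among all genes tested, 34.8% were lower and 38.4% higher. With length and GC trends removed the medians of these sets were -0.58 (65 lower), -0.70 (34 lower) and -0.02 (31 lower and 30 higher). The respiratory chain members had -0.32. That fit called 32.0% of all genes lower and 43.3% higher.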

How the data were processed

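The authors deposited a table of raw read counts per gene for each library. Per the file headers, featureCounts counted exons grouped by gene on mm10, paired-end, without strand. The submitters' processing notes also list Trim Galore 0.6.10, FastQC 0.12.1, Bowtie2 2.5.3, SAMtools 1.20 and featureCounts 2.0.6, with no role stated, and may miss other tools. Bowtie2, if it made the alignments, does not split reads across introns. Even counts outnumber odd ones among low genes, so mates were counted singly and independent fragments are fewer.

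Symbols matched 48058 of 48440 identifiers. Genes passing filterByExpr (20838) entered 1 edgeR 4.0.16 quasi-likelihood fit of all 9 libraries with TMM factors (0.905 to 1.08) and group as the only term, in R 4.3.3. Calls are two-sided at a Benjamini-Hochberg adjusted p under 0.05 over all genes. The common biological coefficient of variation was 9.15%. The fit was tested on simulated data.

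Copies are processed pseudogenes aligned by blastn to a member's mRNA on the same strand. One member is counted but not reported by name here. Members that share exon sequence with another gene number 26. The members, lists and tests were chosen with earlier results of these data known. The NRF1 and YY1 motifs were shortened after a search with longer ones had been seen. Named were, per comparison and complex, the largest called rise and fall at 1 CPM or more, core subunits, paralog sets and the 2 largest rises and falls of the other pathway genes. Alternatives were other scalings and filters, the DESeq2 1.42.0 Wald test, 2-group fits, a replicate block, length and GC trends removed, halved counts, each library left out and, chosen after seeing the data, counts summed with copies.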

Additional observations from a re-analysis of the deposited data

How the results depend on the processing

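Under every alternative run, the members' median kept its sign in all 3 comparisons. The counts of lower members in Auxin and in Reintroduction against Mock stayed within 1.5 times of 75 and 74. Other values moved. The count of higher members in Auxin against Mock (5) was 3 with DESeq2 size factors, the DESeq2 Wald test, the replicate block or copies summed, 8 with total counts, 9 with the length trend removed or with copies summed and both trends removed, and 10 with length and GC trends removed, with or without the block. It was 3 to 7 with each library left out. The median of -0.65 was -0.44 with total counts, -0.33 with length, -0.32 with length and GC, and -0.32 with the block added. It was -0.37 with copies summed and both trends removed, -0.74 with copies summed alone, and -0.76 to -0.61 with a library left out. In Reintroduction against Auxin the higher count (25) was 16 to 48 with a library left out. The lower count (6) was 13 with total counts, 13 with length, 17 with length and GC and 16 with the block added. It was 20 with copies summed and both trends removed, and 6 with copies summed alone. In Reintroduction against Mock the higher count (3) was 7 with total counts, 5 in the 2-group fit, 8 with length or with length and GC, and 7 with the block added. It was 8 with copies summed and both trends removed, 2 with copies summed alone, and 2 to 5 with a library left out. Its median (-0.56) was -0.43 with total counts, -0.28 with length, -0.35 with length and GC, and -0.35 with the block added. It was -0.39 with copies summed and both trends removed, and -0.6 with copies summed alone. Total counts moved the median of all genes from 0.05 to 0.26 in Auxin against Mock, where 9748 were then higher and 5662 lower against 7996 and 7261, and from 0.03 to 0.16 in Reintroduction against Mock. Length and GC removal moved the first to 0.16. Relative to all genes the members lay at -0.70 with either TMM or total counts. A change of scaling moves all genes of a library alike, so this agreement was fixed in advance. With both trends removed the members lay at -0.49. Between groups, libraries with the same replicate number had correlations of -0.17 to 0.05, and those with different numbers -0.18 to 0.24. Whether samples were paired is not settled by these values. The replicate block alone gave 75 lower members in Auxin, 22 higher and 5 lower after washout, and 73 lower against Mock.

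Among single genes, 2302 values held their direction and call, 66 gained and 76 lost the call, and 89 turned sign, none of whose causes was tested. In Auxin against Mock, Cox4i1 was 0.10 with length and 0.17 with both trends removed, with block or copies too. Cox5b was 0.04 with total counts, 0.14 with length, 0.12 with both trends, 0.11 with the block. Cox7b2 was 0.18 with total counts, 0.67 with length, 0.54 with both trends, 0.00097 in the 2-group fit, and -0.20 to 0.15 with a library left out. Cox8a was 0.09 with length and 0.18 with both trends. Ndufa4l2 was in the same order 0.06, 0.33, 0.44, then 0.51 with the block, and -0.55 to 0.28 with a library left out. Ndufb2 was -0.36 with copies and -0.62 with both. Ndufs3 was 0.03 with total counts, 0.02 with length and 0.06 with both trends. In Reintroduction against Auxin, Cox5b was -0.12 to 0.15 with a library left out. Cox6a1 was -0.06 with total counts, -0.02 with the 1 CPM filter, -0.12 with length, -0.17 with both trends, -0.0045 with halved counts, and -0.05 to 0.13 with a library left out. Ndufa4 was -0.03 with both trends and -0.01 with the block. Ndufv1 was 0.01 with both trends and -0.07 to 0.04 with a library left out. Ndufv2 was -0.07, -0.04, -0.02 and -0.16 in the same order, -0.15 with the block, -0.0022 in the 2-group fit, -0.02 with halved counts, and -0.08 to 0.11 with a library left out. Sdha was 0.01 with DESeq2 or both trends, 0.0036 with no filter, and -0.04 to 0.04 with a library left out. Sdhb was -0.05 with total counts, -0.01 with the 1 CPM filter, and -0.03 to 0.10 with a library left out. Uqcrc2 was -0.01 with total counts, -0.0019 with both trends and -0.0018 with copies too. In Reintroduction against Mock, Cox5a was 0.20 with length and Cox7b2 0.09 with length. Cox5b was 0.09 with length or both trends, and 0.10 with both trends and either the block or copies. Ndufb2 was -0.07 with both trends, -0.26 with copies, and -0.59 with copies and both trends.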
